A study of Homo sapiens with 8 samples.

Results

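Phenformin was added to HT1080 cells kept in 2-deoxyglucose (2DG), and the array of these cells was set against the array of cells in 2DG alone, so that 2 of the 8 arrays of the series carry the comparison. HT1080 is a human fibrosarcoma cell line. One array held cells given 100 µM phenformin and 10 mM 2DG, the compound being added just before 2DG, and the other held cells given 10 mM 2DG without a compound. A second pair of arrays, phenformin alone at 100 µM and untreated control cells, served to show what the compound did without 2DG. All 4 cultures were in medium with 2 mg/mL glucose and 10% serum, and all were treated for 18 h. The arrays, Affymetrix U133 Plus 2.0, were hybridized with labelled cRNA made from 100 ng of total RNA, and each condition has 1 array. The differences therefore have no replicate check, and neither an error nor a p-value is attached to them. Of 54675 probe sets, 15503 were kept because they reached a log2 value of 6 on at least 1 of the 8 arrays, and these name 8429 genes. Each gene was read on its kept probe set with the highest mean, and a difference is the log2 value in 2DG with phenformin minus that in 2DG, so that 1 stands for 2-fold. Values below the array's own median of its non-control probe sets (3.28 in 2DG with phenformin, 3.13 in 2DG) counted as not above background, and the difference is then given as a bound.

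2DG enters cells as glucose does, is trapped after phosphorylation by hexokinase and slows glycolysis. It also takes the place of mannose in N-linked glycans, so that glycoproteins fold poorly in the endoplasmic reticulum (ER) and the unfolded protein response (UPR) is switched on. The UPR has sensors named PERK, IRE1 and ATF6, and their output is read as ER chaperones, degradation factors and the targets of the transcription factor ATF4. Phenformin is a biguanide that inhibits complex I of the mitochondrial respiratory chain, so that each drug acts on a different route of ATP supply. Neither ATP nor the rate of either route was measured in these data.

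Of the mesenchymal markers, 9 of 9 reached the limit for expression, with levels between 6.30 and 13.41 in 2DG with phenformin and between 6.72 and 13.52 in 2DG. None of the 5 epithelial, 3 blood or 3 endothelial markers measured reached it. The 24 probe sets of the spiked poly-A control RNAs were all higher in 2DG with phenformin than in 2DG (median 0.31), as were the 18 probe sets of hybridization controls (median 0.35). Scaling on the poly-A controls lowers every difference between 2DG with phenformin and 2DG by 0.32, and centring the arrays on their medians raises it by 0.28. Between phenformin and control in normal medium the poly-A scale lowers every difference by 0.28. The medians that centring uses there are 7.22 with phenformin and 7.26 in control. List medians given on the poly-A scale or after centring are those in 2DG, and those in normal medium are as deposited. The part of these shifts in the results was not tested. The probe set at the 3' end of ACTB exceeded that at its 5' end by between 0.91 and 1.08 on the 4 arrays. In such bulk cultures fewer cells of a kind and less RNA per cell cannot be told apart.

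With phenformin in 2DG, lower signals were far more frequent than higher ones. At least 2-fold higher were 1140 probe sets (7.35%) and at least 2-fold lower were 3130 (20.2%), so that 26.7% of the calls were higher. Centring gave 44.64% and scaling on the poly-A controls 14.06%. Counted as genes, 408 were higher (4.84%) and 1836 lower (21.8%). The counts of each gene list below are to be read beside these shares. At least 4-fold differences were found in 326 probe sets upwards and 853 downwards. Phenformin without 2DG gave a smaller and more even picture, with 426 probe sets higher (2.75%) and 479 lower (3.09%), or 224 genes higher (2.66%) and 183 lower (2.17%). The SD of the differences over probe sets was 1.05 in 2DG and 0.52 in normal medium, and their medians were −0.19 and −0.04. Set against untreated cells, 425 genes were at least 2-fold higher and 1614 at least 2-fold lower in 2DG with phenformin than in control, and 258 were higher and 160 lower in 2DG alone than in control.

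**Figure D1:**
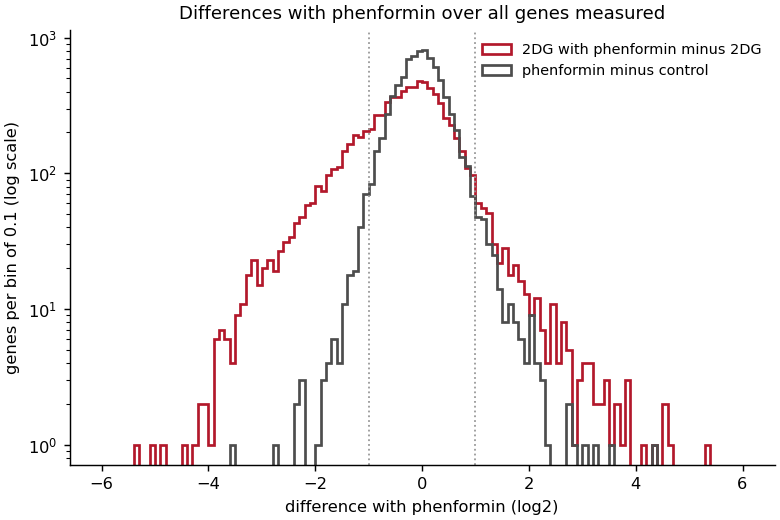
Number of genes (log scale) in bins of 0.1 by their log2 difference with phenformin, for 2DG with phenformin minus 2DG (red) and phenformin minus control (grey), over 8429 genes. The red curve is the wider one and reaches further to the left, with 1836 genes at −1 or lower and 408 at 1 or higher.

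Among genes above the limit for expression in untreated cells, the share of lower genes was larger in dim genes than in bright ones. Of 10 equal bins by control level, the third was the dimmest to lie wholly above the limit (6.31 to 6.76), and 28.8% of its genes were at least 2-fold lower (median −0.48), against 5.34% in the brightest bin (median 0.00). Higher genes made up 3.79% of the third bin and 3.08% of the brightest. The bins below the third hold genes that were under the limit on the control array and were kept only because another array was higher, so their shares are in part set by the limit and are not read here. By genomic length, 23.6% of the bin with the longest genes were lower (median −0.36) and 16.7% of that with the shortest (median −0.06).

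The largest positive differences included immediate early genes, which answer growth factors and stress quickly and whose transcripts are short-lived. EGR1, a zinc finger transcription factor, stood at 11.34 in 2DG with phenformin and 6.04 in 2DG, and at 6.42 with phenformin and 3.38 in control. It was the gene with the largest positive difference, 5.31 on this probe set and 7.08 on the next brightest. ATF3, a stress-induced factor of the ATF family, read 10.26 in 2DG with phenformin and 6.36 in 2DG, against 7.19 with phenformin and 5.13 in control. Both were thus higher with phenformin in either medium. MYC, which drives growth and ribosome production, behaved differently, with 12.32 in 2DG with phenformin and 8.89 in 2DG, but 8.88 with phenformin and 8.53 in control.

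Of 20 immediate early genes measured, 9 were at least 2-fold higher (45%, beside 4.84% of all genes) and 2 lower (10%, beside 21.8%). Their median was 0.47 beside −0.26 over all genes. The median was 0.15 on the poly-A scale, 0.23 with the limit on the control array alone and 2.83 on the next brightest probe sets. In normal medium 5 were higher and none lower. MAFF, a small MAF protein, differed by 2.73 and KLF6, a Krüppel-like factor, by 2.62. JUN, a subunit of AP-1, differed by 1.88 and KLF10 by 1.46. FOSL2, another AP-1 subunit, went both ways, with −2.46 on its brightest probe set and 2.10 on the next. Feedback inhibitors of ERK signalling were divided as well, 7 of 18 being higher (38.9%) and 6 lower (33.3%). SPRY2, which restrains receptor tyrosine kinases, read 12.01 in 2DG with phenformin and 8.69 in 2DG, and DUSP1, a MAP kinase phosphatase, read 10.54 and 7.38. DUSP4 and DUSP7, phosphatases of the same family, differed by −1.48 and −1.82, and ETV5, a factor induced by ERK, by −1.66.

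The promoters of 23 of the 332 higher genes with a RefSeq window (250 bases before to 50 after the start, GRCh38.p14) held the cAMP response element TGACGTCA, which is 6.93%. It was found in 2.81% of windows of lower genes, 3.57% of those of genes measured and 1.98% of all 27305 windows, and in 3.26% of windows of genes that were higher in normal medium. The element reads the same on both strands. The stretches below, all lying before the start site, show it in capitals in 4 of the higher genes, as an example of letters that this set held more often.
DUSP1 (chr5:172771288-172771345, minus strand): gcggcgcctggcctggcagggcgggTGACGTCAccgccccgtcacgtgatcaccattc
PPP1R15A (chr19:48872338-48872395, plus strand): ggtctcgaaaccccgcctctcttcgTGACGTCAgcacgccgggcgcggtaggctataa
MAFF (chr22:38201915-38201972, plus strand): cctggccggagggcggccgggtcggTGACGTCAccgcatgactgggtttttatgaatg
CCNA2 (chr4:121823932-121823989, minus strand): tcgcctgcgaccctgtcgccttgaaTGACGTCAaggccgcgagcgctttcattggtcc
A match describes letters in a window and not binding by a factor.

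Targets of the transcription regulators YAP and SRF, which follow cell shape and actin, held some of the largest positive differences. ANKRD1 read 10.27 in 2DG with phenformin and 5.62 in 2DG, and 4.76 with phenformin and 5.44 in control. CCN2, which encodes connective tissue growth factor, read 11.67 in 2DG with phenformin and 7.52 in 2DG, and 7.90 with phenformin and 7.96 in control. Both were far lower on the other 3 arrays. CCN1, a matrix protein of the same family, differed by 2.65. The whole list of 21 had 5 members higher (23.8%) and 2 lower (9.52%) and a median of 0.12, which becomes −0.20 on the poly-A scale. AJUBA differed by −2.55 and LATS2, a kinase that restrains YAP, by −2.11, though another LATS2 probe set gave 3.18.

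Inhibitors of NF-κB and some chemokine genes were higher with phenformin in 2DG, while 5 of 10 interferon-induced genes were lower. TNFAIP3, which encodes the NF-κB inhibitor A20, read 8.41 in 2DG with phenformin and 3.84 in 2DG, and 3.21 with phenformin and 3.69 in control. NFKBIA, another inhibitor of NF-κB, differed by 2.45, and the chemokine genes CXCL8 and CXCL3 by 3.13 and 1.58. Of 14 cytokines, chemokines and NF-κB genes 6 were higher (42.9%, beside 4.84% of all genes) and 3 lower (21.4%, beside 21.8%). CSF1, IL1A and IL1B made up the lower ones, with −1.69, −1.64 and −1.06. The 14 are those of 26 list genes on the array that reached the limit for expression. Among the arrays given above TNFAIP3 reached it only in 2DG with phenformin, so the share of higher genes is in part set by the limit. The median of the 14 was 0.26, and 0.14 with the limit on the control array alone. It was −0.06 on the poly-A scale and 1.04 with a limit of 7. None of 10 interferon-induced genes was higher and 5 were lower (50%, beside 21.8% of all genes), with a median of −1.08. This median was −0.18 with a limit for expression of 7 or with the limit on the control array alone. It was −2.07 on the next brightest probe sets, so that its size rests on those choices. IFIT3 read 3.47 in 2DG with phenformin and 6.95 in 2DG, and IRF9, a subunit of the factor that interferon activates, read 4.51 and 6.65.

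**Figure D2:**
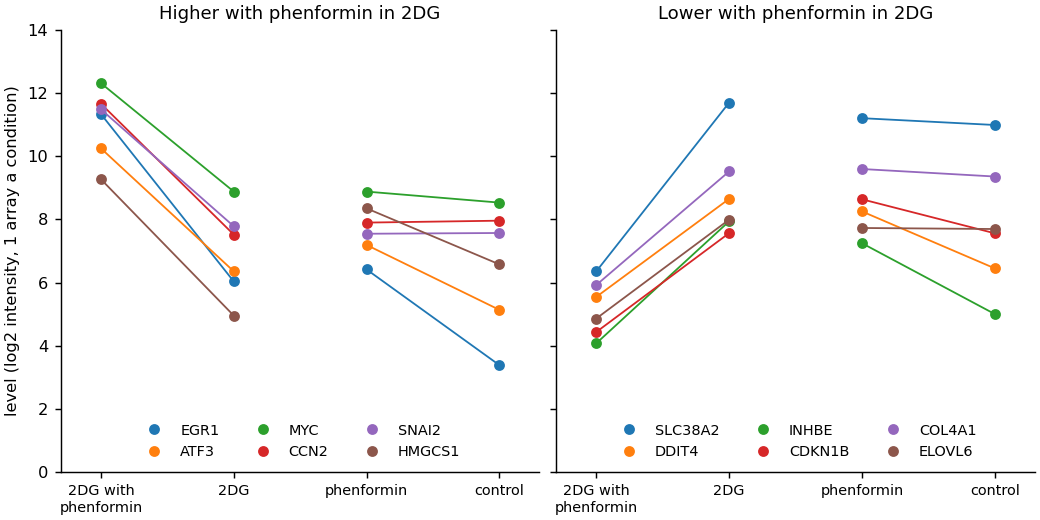
Log2 intensity of 6 genes that were higher (left) and 6 that were lower (right) with phenformin in 2DG, on the arrays of 2DG with phenformin, 2DG, phenformin and control, 1 array a condition. Lines join the arrays of one comparison. SLC38A2 lies at 6.35 in 2DG with phenformin and 11.70 in 2DG, and CCN2 at 11.67 in 2DG with phenformin and 7.52 in 2DG.

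The gene with the largest negative difference was SLC38A2, which encodes SNAT2, a sodium-coupled carrier of neutral amino acids that cells induce when amino acids are short. It read 6.35 in 2DG with phenformin and 11.70 in 2DG, a difference of −5.35 on this probe set and −3.81 on the next. With phenformin alone it read 11.21, which is 0.22 above control. Amino acid transporters as a list had none of 15 higher and 9 lower (60%, beside 21.8% of all genes). Their median of −1.37 becomes −0.90 without probe sets that can match several transcripts and −2.86 on the next brightest probe sets. SLC7A11, the cystine carrier, read 6.57 in 2DG with phenformin and 9.88 in 2DG, and SLC38A9, the lysosomal arginine sensor of mTORC1, read 5.44 and 7.99. SLC1A4 and SLC7A5, carriers of neutral amino acids, differed by −2.28 and −1.60. SLC7A1, a carrier of cationic amino acids, differed by −1.41 on its brightest probe set, 0.17 on the next and 2.62 on another.

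Of 12 enzymes of serine, asparagine, proline and one-carbon metabolism, which make amino acids, 6 were lower (50%, beside 21.8% of all genes) and none higher. Their median was −1.05, and −0.35 without probe sets that can match several transcripts. ASNS, asparagine synthetase, read 9.28 in 2DG with phenformin and 11.37 in 2DG, and 10.93 with phenformin and 8.89 in control. PSAT1 and PHGDH, enzymes of serine synthesis, differed by −1.82 and −1.30 in 2DG, and by 0.73 and 1.46 in normal medium. CBS, which makes cystathionine from homocysteine, differed by −2.09 in 2DG and 1.06 in normal medium. MAT2A, which makes S-adenosylmethionine, differed by −2.61 in 2DG and −1.90 in normal medium. The tRNA synthetases, which load amino acids on tRNAs, had 3 of 17 lower (17.6%, beside 21.8% of all genes) and none higher. Their median was −0.36, beside −0.26 over all genes, and −0.08 after centring, with SARS1 at −1.23 and AARS1 at −1.27.

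ATF4 and CHOP regulators, the list of stress-induced genes that these factors turn on, had 10 of 18 lower (55.6%) and 1 higher (5.56%) in 2DG. Over all genes these shares were 21.8% and 4.84%. The list's median in 2DG was −1.38. In normal medium none of the 18 was lower and 5 were higher, with a median of 0.62. The higher gene in 2DG was ATF3. The list's median in 2DG was −0.45 when each gene was read as the median of its probe sets, −0.39 when only genes that reached 6 on the control array were kept and −0.18 on the next brightest probe sets, so that its size rests on those choices. INHBE, a subunit of the TGF-beta family, read 4.07 in 2DG with phenformin and 7.94 in 2DG, and 7.25 with phenformin and 5.00 in control. DDIT4, an inhibitor of mTORC1, read 5.54 in 2DG with phenformin and 8.65 in 2DG, and 8.26 with phenformin and 6.45 in control. Each was thus higher than control in 2DG and with phenformin, and below control with both. TRIB3, a pseudokinase induced by CHOP, read 8.44 in 2DG with phenformin and 10.82 in 2DG, and 9.50 with phenformin and 8.71 in control. STC2, a secreted glycoprotein, differed by −3.69 on its brightest probe set and by −0.32 on the next. CHAC1, which degrades glutathione, differed by −1.98 in 2DG and −0.26 in normal medium, and VLDLR, a lipoprotein receptor, by −2.08 and 0.46.

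The ATF4 element TGATGNAA, searched on both strands, was held by 5 of 14 windows of tRNA synthetases, 3 of 13 of amino acid transporters, 2 of 9 of the amino acid enzymes and 2 of 13 of ATF4 and CHOP regulators. It was found in 1.82% of windows of genes measured and 3.67% of all windows. Among windows of lower genes the share was 1.70%, and among those of higher genes 2.71%. ASNS, CHAC1 and AARS1 were lower and ATF3 was higher, and the stretches below show in capitals the element or its reverse complement in each, so that genes with the element are seen on both sides.
ASNS (chr7:97872444-97872501, minus strand): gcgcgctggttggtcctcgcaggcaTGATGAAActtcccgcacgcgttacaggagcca
CHAC1 (chr15:40953237-40953294, plus strand): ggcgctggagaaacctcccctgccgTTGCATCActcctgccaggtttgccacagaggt
AARS1 (chr16:70289661-70289718, minus strand): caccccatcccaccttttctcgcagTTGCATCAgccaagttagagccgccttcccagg
ATF3 (chr1:212565191-212565248, plus strand): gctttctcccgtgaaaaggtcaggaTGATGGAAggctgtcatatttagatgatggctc
These stretches are also from RefSeq windows, and those shown lie before the start site. The counts above cover the whole windows, which also reach past the start.

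The UPR sensors and regulators had shares close to those over all genes, with 4 of 20 lower (20%, beside 21.8% of all genes) and 1 higher (5.00%, beside 4.84%). Their median was −0.36, −0.08 after centring and 0.08 on the next brightest probe sets, so that the list has no settled direction. PPP1R15A, which encodes GADD34, the phosphatase subunit that reverses phosphorylation of eIF2α, read 10.14 in 2DG with phenformin and 7.61 in 2DG, and 7.59 with phenformin and 7.13 in control. PPP1R15B, its constitutive relative, read 6.54 in 2DG with phenformin and 8.13 in 2DG. EIF2AK3, which encodes PERK, read 4.83 in 2DG with phenformin and 6.86 in 2DG, and 6.50 with phenformin and 6.37 in control. ERN1, which encodes IRE1, read 5.07 in 2DG with phenformin and 6.29 in 2DG, and 5.14 with phenformin and 4.72 in control. MBTPS1, the protease that cleaves ATF6 in the Golgi, differed by −1.10, and DDIT3, which encodes CHOP, by 0.96. ATF4 itself stood at 11.84 in 2DG with phenformin and 12.24 in 2DG, a difference of −0.41, and ATF6 differed by −0.52.

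ER chaperones and folding enzymes were lower in 9 of 22 (40.9%, beside 21.8% of all genes) and higher in none. Their median was −0.81 in 2DG and −0.07 in normal medium. The list's median against control was 0.54 in 2DG with phenformin and 1.37 in 2DG. In 2DG with phenformin 7 of the 22 were at least 2-fold above control and 1 at least 2-fold below it, while in 2DG 15 were above and none below. FKBP2, a prolyl isomerase of the ER, read 8.52 in 2DG with phenformin and 10.14 in 2DG, and 8.88 with phenformin and 8.80 in control. P4HB and PDIA4, protein disulfide isomerases, differed by −1.17 and −1.52, and HYOU1, a chaperone of the HSP70 family, by −1.36. HSPA5, which encodes GRP78, differed by 0.52 on its brightest probe set, which centring raises and the poly-A scale lowers without turning it, and by −0.69 on the other. The directions for GRP78 therefore differ between its probe sets.

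The ER stress element, spelled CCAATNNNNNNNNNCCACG and searched on both strands, was held by 5 of 20 windows of chaperones and by 0.081% of all windows (22 of 27305). Of the genes measured 10 hold it, 1 of them lower, none higher and 9 within 2-fold. The chaperones that hold it ran between −1.53 and 0.52 in the comparison, and they alone are shown, with the element or its reverse complement in capitals, in the order of their differences.
CRELD2 (chr22:49918529-49918597, plus strand): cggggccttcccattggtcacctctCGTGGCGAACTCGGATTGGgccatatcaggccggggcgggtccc
CANX (chr5:179698753-179698821, plus strand): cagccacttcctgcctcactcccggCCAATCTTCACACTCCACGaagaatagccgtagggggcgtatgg
HSP90B1 (chr12:103930191-103930259, plus strand): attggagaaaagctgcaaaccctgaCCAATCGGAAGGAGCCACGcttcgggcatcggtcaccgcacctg
HSP90B1 (chr12:103930296-103930364, plus strand): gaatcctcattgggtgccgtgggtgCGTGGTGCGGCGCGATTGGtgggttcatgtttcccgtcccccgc
CALR (chr19:12938359-12938427, plus strand): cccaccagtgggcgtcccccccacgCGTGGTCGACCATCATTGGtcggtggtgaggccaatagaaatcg
HSPA5 (chr9:125241366-125241434, minus strand): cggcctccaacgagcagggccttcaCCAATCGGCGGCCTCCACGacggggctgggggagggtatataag
Their differences were −1.53 for CRELD2, −0.96 for CANX, −0.24 for HSP90B1, −0.07 for CALR and 0.52 for HSPA5. HSP90B1, which encodes GRP94, gave 0.26 on its other kept probe set, so its direction also differs between probe sets.

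The other steps of the secretory pathway are given with their shares of lower genes, beside 21.8% over all genes. Of 34 genes of ER-associated degradation and translocation 13 were lower (38.2%) and none higher (median −0.58, or −0.30 after centring). FAF2, an adaptor that brings p97 to ubiquitinated proteins, read 7.37 in 2DG with phenformin and 9.74 in 2DG, and 9.64 with phenformin and 9.68 in control, while its next probe set gave −0.45. SEC11C, a subunit of the signal peptidase, differed by −1.61, and TRAM1, a partner of the translocon, by −1.55. Glycosylation genes had 9 of 32 lower (28.1%) and 1 higher (median −0.62, or −0.33 after centring). MOGS, the glucosidase that trims the first glucose of N-glycans, read 4.60 in 2DG with phenformin and 7.58 in 2DG. UAP1, which makes UDP-N-acetylglucosamine, was the higher one, at 11.97 in 2DG with phenformin and 10.18 in 2DG. Vesicle transport genes had 4 of 30 lower (13.3%) and 1 higher (median −0.55, or −0.27 after centring), and KDELR3, a receptor that returns ER proteins, differed by −1.91 in 2DG and 1.01 in normal medium.

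**Figure D3:**
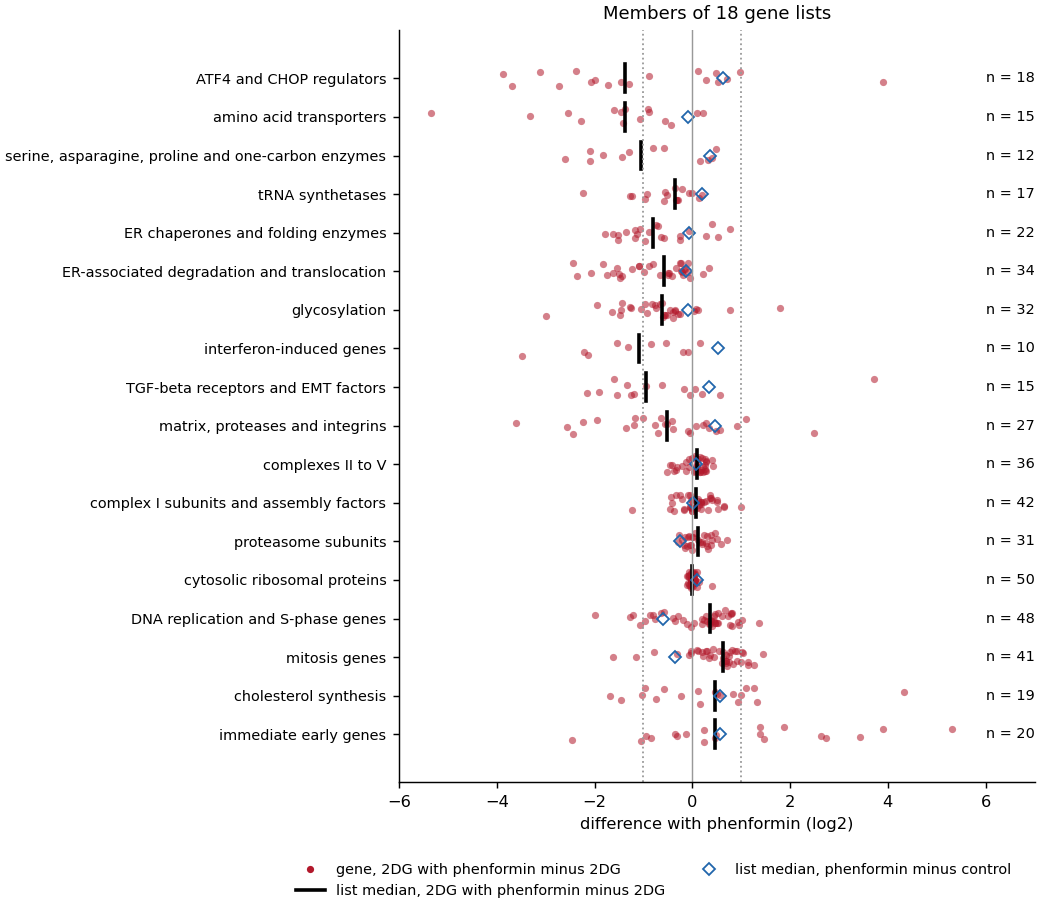
Log2 difference with phenformin in 2DG for the members of 18 gene lists (points, with the number measured at the right), the median of each list (black bar) and its median in the comparison of phenformin with control (open diamond). The lists at the top run to the left, with medians of −1.38 for ATF4 and CHOP regulators and −1.37 for amino acid transporters, and the diamond of mitosis genes (−0.35) lies on the other side of 0 from their bar (0.63).

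Genes of mitosis had a positive median with phenformin in 2DG and a negative one with phenformin in normal medium. Their median was 0.63 in 2DG, or 0.31 on the poly-A scale, and −0.35 in normal medium. In 2DG 6 of 41 were at least 2-fold higher (14.6%, beside 4.84% of all genes) and 2 lower (4.88%, beside 21.8%). Against control the medians were −0.38 in 2DG with phenformin and −1.06 in 2DG, so that the list stood nearer to untreated cells with both drugs than with 2DG alone. CCNA2, cyclin A2, read 9.65 in 2DG with phenformin and 8.40 in 2DG, and 9.49 with phenformin and 9.84 in control. HMMR and ANLN, which act at the spindle and in cytokinesis, differed by 1.44 and 1.14, and UBE2C, a ubiquitin-conjugating enzyme of the anaphase-promoting complex, by 1.15. ASPM, a spindle pole protein, differed by −1.63 on its brightest probe set and 0.55 on the next.

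DNA replication genes had a median of 0.36 in 2DG, 0.04 on the poly-A scale, and −0.60 in normal medium. Members went both ways, 2 of 48 being higher (4.17%) and 4 lower (8.33%). RRM2, a subunit of ribonucleotide reductase, differed by 1.37, while PCNA, the sliding clamp, differed by −1.08 and FEN1, a flap endonuclease, by −1.22. CCNE2, cyclin E2, read 4.36 in 2DG with phenformin and 5.63 in 2DG, and 6.32 with phenformin and 7.43 in control. Of 18 G1 cyclins and CDK inhibitors 5 were lower (27.8%, beside 21.8% of all genes) and none higher (beside 4.84%). CDKN1B, which encodes p27, read 4.43 in 2DG with phenformin and 7.57 in 2DG, and 8.64 with phenformin and 7.56 in control. CDKN1A, which encodes p21, read 5.56 in 2DG with phenformin and 7.25 in 2DG, and 9.10 with phenformin and 7.49 in control. The differences of both have opposite signs in the 2 media.

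The p53 targets, CDKN1A among them, were split, with 5 of 24 higher (20.8%, beside 4.84% of all genes) and 6 lower (25%, beside 21.8%). GADD45A, a growth arrest protein, reached 13.01 in 2DG with phenformin and 9.92 in 2DG, and 10.93 with phenformin and 9.59 in control. PMAIP1, which encodes the BH3-only protein NOXA, read 11.39 in 2DG with phenformin and 9.04 in 2DG, and 8.80 with phenformin and 8.65 in control. PLK2, a polo-like kinase, differed by 2.68 and TNFRSF10B, a receptor for TRAIL, by −1.46, with 1.95 on its next probe set. Of 13 members of the BCL2 family 2 were higher and 2 lower (15.4% each). Besides PMAIP1 these were BCL2L11, BOK and BCL2L2, of which BOK and BCL2L2 differed by −1.18 and −1.10. BCL2L11, which encodes BIM, has no settled direction, with 1.09 on its brightest probe set and 0.07, −2.55 and 1.64 on the others.

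The respiratory chain, on which phenformin acts, was even between the arrays at the level of transcripts. Of 42 subunits and assembly factors of complex I, 1 was at least 2-fold higher and 1 lower (2.38% each), with a median of 0.07. Of 36 subunits of complexes II to V none was called, with a median of 0.10. Over all genes 4.84% were higher and 21.8% lower, but in the brightest bin by control level only 3.08% and 5.34%. Whether these lists differ from equally bright genes was not tested. Both medians become negative on the poly-A scale, −0.25 and −0.22. The called ones were the assembly factors NDUFAF4, at 10.01 in 2DG with phenformin and 9.01 in 2DG, and NDUFAF1, at 5.98 and 7.22. Other mitochondrial genes held 4 lower (15.4%, beside 21.8% of all genes) and 1 higher (3.85%, beside 4.84%) of 26. LONP1, a protease of the matrix, was at −1.26 and MFN1, a fusion GTPase, at −1.18. PPRC1, a coactivator of the PGC-1 family, differed by 1.02.

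The bright housekeeping groups of ribosomal proteins, translation factors and proteasome subunits were likewise even. None of 50 cytosolic ribosomal proteins, 36 translation factors or 31 proteasome subunits was called, with medians of 0.00, −0.06 and 0.11. The ribosomal proteins lay between −0.11 and 0.41. In the brightest bin of all genes by control level 3.08% were higher and 5.34% lower. Ribosome biogenesis genes had 6 of 43 higher and 1 lower, with a median of 0.24 that becomes −0.07 on the poly-A scale, and −0.52 in normal medium. BYSL, which takes part in making the small ribosomal subunit, read 9.81 in 2DG with phenformin and 8.09 in 2DG, and 7.66 with phenformin and 8.25 in control. RCL1 differed by 2.26 and NIP7 by 1.11.

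Genes of energy sensing were found in both directions. Of 25 components of AMPK and mTOR signalling 9 were lower (36%, beside 21.8% of all genes) and 2 higher (8%, beside 4.84%). Their median was −0.37, or −0.09 after centring. PRKAA1, which encodes the α1 catalytic subunit of AMPK, read 6.90 in 2DG with phenformin and 5.33 in 2DG, and 5.62 with phenformin and 5.11 in control. STK11, which encodes LKB1, the kinase that activates AMPK, read 4.73 in 2DG with phenformin and 6.50 in 2DG. RICTOR, a subunit of mTORC2, differed by −2.99 and TSC1, an inhibitor of mTORC1, by −1.77. FLCN differed by 1.77 on its brightest probe set and −1.96 on the next, and FNIP1, its partner, by −1.90 and 1.41. EIF4EBP1, a translation repressor under mTORC1, differed by −0.24.

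The list of insulin signalling and FOXO targets lay close to all genes, with a median of −0.28 beside −0.26. Of its 10 members 3 were lower (30%, beside 21.8% of all genes) and 1 higher (10%, beside 4.84%). IRS1, the docking protein of the insulin receptor, read 5.02 in 2DG with phenformin and 7.60 in 2DG, and 7.74 with phenformin and 6.68 in control. PIK3R1, the regulatory subunit of PI3-kinase, read 4.34 in 2DG with phenformin and 7.20 in 2DG. CITED2, a transcriptional cofactor, was the higher one of 10 in that list, with 3.82 and 5.40 on its probe sets. TGF-beta receptors and EMT factors had 7 of 15 lower (46.7%) and 1 higher (6.67%). Their median was −0.94, or −0.12 on the next brightest probe sets, with TGFBR1 at −1.61 and SMAD3 at −1.55. The next probe set of SMAD3 gave −0.12. The higher one, SNAI2, encodes the EMT factor Slug and read 11.49 in 2DG with phenformin and 7.79 in 2DG, and 7.55 with phenformin and 7.57 in control. BMP genes were split, 5 of 16 being higher (31.25%) and 3 lower (18.75%). Their median of 0.36 becomes −0.32 when each gene is read as the median of its probe sets. ID2, a BMP target, read 7.55 in 2DG with phenformin and 4.47 in 2DG, and BMPR2, a BMP receptor, read 4.14 and 6.32.

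Of 27 genes of the matrix, its proteases and integrins 9 were lower (33.3%, beside 21.8% of all genes) and 2 higher (7.41%, beside 4.84%). Their median was −0.51, or −0.23 after centring. COL4A1 and COL4A2, chains of basement membrane collagen, read 5.92 and 8.05 in 2DG with phenformin, against 9.52 and 10.28 in 2DG. ITGA2 and ITGAV, integrin chains, differed by −2.57 and −1.94. MMP3, stromelysin, was higher, at 10.42 in 2DG with phenformin and 7.93 in 2DG, and 5.23 with phenformin and 6.05 in control.

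Lipid synthesis genes differed in both directions. Of 19 cholesterol synthesis genes 4 were higher (21.1%, beside 4.84% of all genes) and 3 lower (15.8%, beside 21.8%). Their median was 0.47 in 2DG, 0.15 on the poly-A scale, and 0.57 in normal medium. HMGCS1, which makes HMG-CoA, read 9.28 in 2DG with phenformin and 4.95 in 2DG, and 8.35 with phenformin and 6.58 in control, with 0.94 in 2DG on its next probe set. MSMO1 and DHCR7, later enzymes of the pathway, differed by 1.32 and 1.26. In 2DG alone the list had been below control, with a median of −0.59, and in 2DG with phenformin it stood at −0.38. In fatty acid synthesis ELOVL6, an elongase, read 4.86 in 2DG with phenformin and 7.99 in 2DG, and GPAM, the first enzyme of glycerolipid synthesis, differed by −1.85. None of the 14 fatty acid genes was 2-fold higher and 2 were lower (14.3%). Glycolysis and glucose uptake had 2 of 23 higher and 2 lower (8.70% each), with ALDOC at 1.62, PDK1 at 1.38 and PFKFB4 at −1.38.

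The differences with phenformin in 2DG and those in normal medium had correlations near 0 across probe sets. Calls in the same direction in both comparisons were still more frequent than the shares over all probe sets. Of calls in opposite directions, those lower in 2DG and higher in normal medium were also more frequent. Those higher in 2DG and lower in normal medium were near the share over all. The part that the level of the probe sets has in these shares was not tested. The 2 comparisons use no common array, and across kept probe sets their differences had r = 0.076 and rho = 0.052, given as a description since probe sets are not replicates. At least 2-fold higher in both were 94 probe sets, which is 8.25% of those higher in 2DG, beside 2.75% of all kept probe sets higher in normal medium, and 22.07% of those higher in normal medium, beside 7.35% of all higher in 2DG. At least 2-fold lower in both were 159, which is 5.08% of those lower in 2DG, beside 3.09% of all, and 33.19% of those lower in normal medium, beside 20.2% of all. In opposite directions were 41 probe sets that were higher in 2DG and lower in normal medium, or 8.56% of those lower in normal medium, beside 7.35% of all. A further 123 were lower in 2DG and higher in normal medium, or 28.87% of those higher in normal medium, beside 20.2% of all kept probe sets lower in 2DG. TFRC, the transferrin receptor, was of the first kind, at 11.92 in 2DG with phenformin and 10.31 in 2DG, and 9.74 with phenformin and 11.73 in control. WIPI1, which binds phagophores in autophagy, was of the second, at 5.15 in 2DG with phenformin and 8.20 in 2DG, and 7.35 with phenformin and 5.88 in control.

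**Figure D4:**
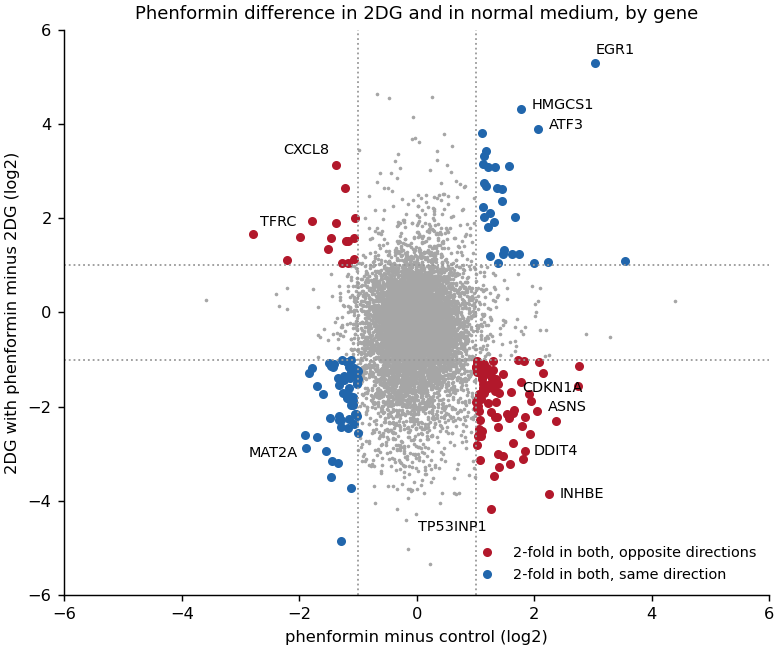
Log2 difference of each gene for 2DG with phenformin minus 2DG (vertical) against phenformin minus control (horizontal), with dotted lines at 2-fold and values under background plotted as read. Of genes called in both comparisons, 82 were lower in 2DG and higher in normal medium, 16 were higher in 2DG and lower in normal medium (red), 30 were higher in both and 62 lower in both (blue).

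Besides SLC38A2, the 20 genes with the largest negative differences were mostly dim on the array of both drugs, 11 of them not being above background there. ZC3HAV1, an antiviral RNA-binding protein, read 2.69 in 2DG with phenformin and 7.56 in 2DG, a difference of −4.28 or lower. GBP3, a guanylate-binding protein, and SIX4, a homeobox factor, were at −4.02 and −3.78 or lower. KLF3, a Krüppel-like repressor, differed by −4.04 and by −0.48 on its next probe set. SLC33A1, the acetyl-CoA carrier of the ER, read 5.56 in 2DG with phenformin and 9.51 in 2DG. CKMT2-AS1, an antisense RNA, read 2.22 in 2DG with phenformin and 7.25 in 2DG, a difference of −3.97 or lower. KIAA0232 was at −4.01 or lower, and GOLGA8A, of the golgin family, and CHST15, a sulfotransferase, differed by −4.17 and −3.85. Of the 20, 6 had a further kept probe set, which was lower in all 6 and at least 2-fold lower in 4. In normal medium 1 of the 20 was 2-fold lower and 2 were 2-fold higher.

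Among the 20 genes with the largest positive differences none was at background in 2DG. Of 13 with a further probe set, 9 were higher there and 7 at least 2-fold higher. CREB5, a factor that binds cAMP response elements, gave 4.58 and −1.40 on its probe sets, ZBTB24 gave 3.80 and −1.21, GPRC5A gave 3.63 and −0.83, and DYRK2 gave 3.24 and −0.01. SIK1, a kinase of the AMPK family, read 8.59 in 2DG with phenformin and 5.05 in 2DG, and SGK1, a kinase induced by serum and stress, read 11.79 and 8.57. KLF5 and NOCT, a deadenylase relative, differed by 3.38 and 3.68, and by 2.84 and 2.59 on their next probe sets. ENTPD7, a nucleoside triphosphatase, differed by 3.45 and DIS3L2, an exoribonuclease, by 3.44, and by 1.04 and 0.41 on their next probe sets. In normal medium 6 of the 20 were 2-fold higher and none 2-fold lower.

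Since each side has 1 array, the agreement of probe sets of the same gene is the check that these data allow, and it covers measurement on these 2 arrays and not the cultures. Of 3492 genes with 2 or more kept probe sets, 65.09% had the same sign on all, and the median SD between probe sets of a gene was 0.297. Of 196 genes that were higher on the brightest probe set 66.84% had the same sign on the next and 48.47% were also 2-fold higher there. Of 660 that were lower the shares were 83.03% and 58.64%. Over all such genes 57.65% were below 0 on the next probe set, 9.56% were 2-fold higher and 20.16% 2-fold lower.

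**Figure D5:**
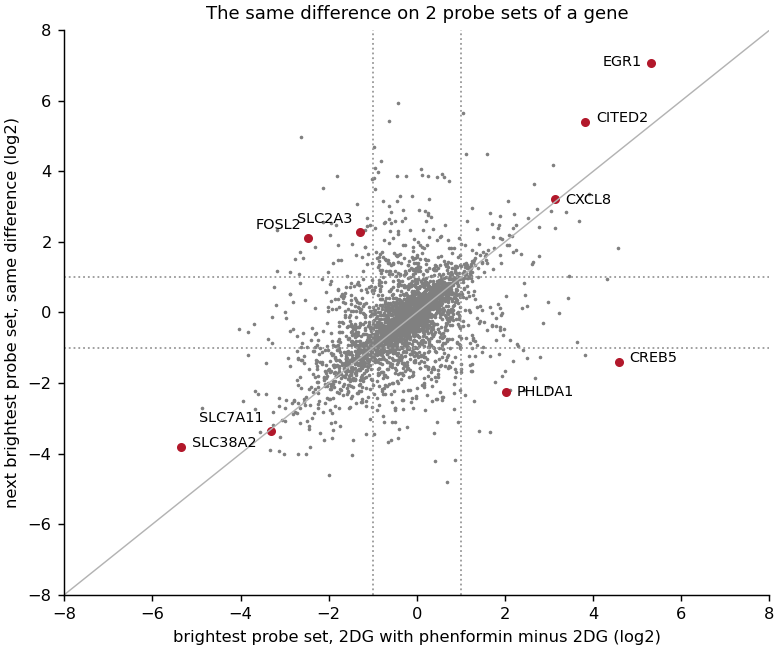
Log2 difference with phenformin in 2DG on the next brightest probe set of a gene against that on its brightest, for 3492 genes, with the line of equal values and dotted lines at 2-fold. SLC7A11 (−3.31 and −3.35) lies on the line, and CREB5 (4.58 and −1.40) and PHLDA1 (2.02 and −2.25) are among the genes far from it.

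The other compounds of the series were given in 2DG at other doses and share the 2DG array, so their values are set beside those of phenformin without a comparison. EGR1 differed by 5.31 with phenformin, 5.89 with 10 µM compound C and 4.32 with 10 µM versipelostatin. SLC38A2 differed by −5.35 with phenformin, −0.44 with compound C and −5.73 with versipelostatin. ANKRD1 gave 4.65, −1.96 and 3.08, EIF2AK3 gave −2.03, 1.57 and −3.92, and COL4A1 gave −3.60, −2.04 and −3.06, in the same order.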

How the data were processed

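Gene expression was read on 8 arrays of HT1080 cells, 1 for each condition. The deposited values are log2 intensities, which per the submitters' processing notes were made by the authors with RMA (background correction, normalization between arrays, summary by probe set); the software that ran it is not given in the sources used here. The scanner files of the arrays were not used here. The values entered without a further step. Of 54675 probe sets, 62 controls were left out and those reaching 6 on at least 1 array were kept (15503, of which 13771 carry 1 symbol in the platform annotation). A difference of 1 (2-fold) or more counted as called. With 1 array a condition no test was made, and the number of arrays limits the precision.

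The members, the 45 gene lists and the thresholds were chosen with earlier results of these data known. The rule for named genes gives 294, of which the text describes a part chosen after their values were seen: the 20 genes with the highest and the 20 with the lowest difference, the 6 members (or fewer) of every list that differed most, and the UPR and kinase genes the study examined; outside this rule, and also chosen after their values were seen, are CALR, CANX, CHAC1, CXCL3, DUSP4, IL1B, JUN, KLF10, P4HB, SLC7A1, TNFRSF10B, TRAM1, VLDLR and genes with opposite probe sets in the closing section. Motifs were searched in RefSeq promoter windows, which 7077 of the measured genes have. As alternatives, calls were made at 1.5-fold and 3-fold, the limit for expression was set to 5, 7 or none, and use was made of centring, quantile normalization, scaling on poly-A controls, leaving out probe sets that can match several transcripts, and the median or the next brightest probe set of a gene. An expression limit on the control array alone was added after seeing the data. The calculation was tested on simulated data. Calculations ran in Python 3.11.15 with pandas 2.3.3 and numpy 2.4.6, and matplotlib 3.10.9 drew the figures.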

Additional observations from a re-analysis of the deposited data

Results flagged for a closer look

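For 21 of the named genes the difference with phenformin was at least 2-fold in 2DG and at least 2-fold the other way in normal medium, and with 1 array a condition this contrast of the 2 media was not tested. Lower in 2DG and higher in normal medium were INHBE (−3.87 in 2DG, 2.25 in normal medium), CDKN1B (−3.14 and 1.08), DDIT4 (−3.11 and 1.81) and WIPI1 (−3.05 and 1.46). TP53INP1, a p53-induced gene, was at −3.50 or lower in 2DG and at 1.26 in normal medium. AKR1C3, an aldo-keto reductase and NRF2 target, gave −2.62 and 1.04, IRS1 gave −2.58 and 1.07, and COL6A3, a chain of collagen VI, gave −2.44 and 1.37. IRF9 gave −2.14 and 1.64, CBS −2.09 and 1.06, ASNS −2.08 and 2.04, and KDELR3 −1.91 and 1.01. CDKN1A gave −1.69 and 1.60, DUSP4 −1.48 and 1.77, TGIF1, a corepressor of SMAD proteins, −1.35 and 1.11, and PHGDH −1.30 and 1.46. SLC2A3, the glucose transporter GLUT3, gave −1.29 and 2.15 on its brightest probe set, and 2.28 and 1.84 on the next, where the 2 media do not differ in direction.

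Higher in 2DG and lower in normal medium were CXCL8 (3.13 and −1.37), TFRC (1.61 and −1.99), CXCL3 (1.58 and −1.47) and SRSF7, a splicing factor of the SR family (1.51 and −1.21). Over all genes 82 were lower in 2DG and higher in normal medium and 16 the other way round.

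Probe sets outside the measurement of cellular transcripts also differed between the arrays. The poly-A controls were higher by a median of 0.31 and the hybridization controls by a median of 0.35 in 2DG with phenformin than in 2DG, and their part in the results was not tested.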

How the results depend on the processing

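With 1 array a condition no replicate could be left out, and no paired analysis was possible because each group holds 1 array. At a threshold of 1.5-fold 2264 probe sets were higher, 5086 lower and 1102 were called the same way with and without 2DG, against 1140, 3130 and 253 at 2-fold, and at 3-fold these counts were 530, 1480 and 26. Higher probe sets numbered 1781 with no expression limit, 1787 after centring, 740 on the poly-A scale, 635 without probe sets that can match several transcripts and 621 with the limit on the control array alone, which was chosen after seeing the data. Probe sets called the same way with and without 2DG numbered 525 on the poly-A scale and 165 without those that can match several transcripts. Genes that were higher numbered 729 after centring and 233 on the poly-A scale, against 408, and genes that were lower numbered 704 when read on the next brightest probe set, against 1836, since fewer genes have one. The other counts stayed within 1.5 times. No list median of 0.5 or more in size changed its sign under an alternative. Of the 45 list medians the poly-A scale shifted all by over 0.3, since it shifts every difference alike, and centring shifted none that far. The next brightest probe set shifted 17, leaving out probe sets that can match several transcripts 11, quantile normalization 5, a limit of 7 and the limit on the control array 4 each, and the median of a gene's probe sets 3.

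Some of the genes named by the rule or in the text called at 2-fold turned their sign under some readings, and the cause was not tested. On the next brightest probe set these were ASPM (0.55), CCND2 (0.12), COPA (0.19), CREB5 (−1.40), DYRK2 (−0.010), FLCN (−1.96), FNIP1 (1.41), FOSL2 (2.10), GPRC5A (−0.83), HNRNPA1 (−0.78), PHLDA1 (−2.25), SAR1A (−1.65), SEC24A (0.015), SKIL (0.94), SLC2A3 (2.28), SLC7A1 (0.17), SURF4 (0.23), TNFRSF10B (1.95), TRA2B (0.30), UBTF (0.039), ZBTB24 (−1.21) and ZFC3H1 (4.98). As the median of all probe sets of a gene they were FLCN (−0.097), SEC24A (0.015), SLC7A1 (0.90), TNFRSF10B (1.92), TRA2B (0.038), VEGFA (0.22) and ZFC3H1 (1.18). Without probe sets that can match several transcripts they were ASPM (0.55), DYRK2 (−0.010), HNRNPA1 (−0.78), SAR1A (−1.65), SLC7A1 (0.17), SQSTM1 (2.81) and UBE2G2 (1.22), and with the limit on the control array ZBTB24 (−1.21). None of the named genes called at 2-fold turned under centring, quantile normalization, the poly-A scale or a limit of 7.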

Other observations

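Probe sets of one gene were called in opposite directions more often in 2DG than in normal medium, but calls of either direction were also more frequent there. Of all kept probe sets 7.35% were higher and 20.2% lower in 2DG, against 2.75% and 3.09% in normal medium. The part that the larger number of calls has in the contrast below was not tested. Of 3492 genes with 2 or more kept probe sets, 125 (3.58%) had one that was at least 2-fold higher and another that was at least 2-fold lower with phenformin in 2DG, and 3 (0.086%) had such a pair with phenformin in normal medium. In ZFC3H1, a factor that leads nuclear polyadenylated RNA to the exosome, one probe set read 7.15 in 2DG with phenformin and 2.17 in 2DG, while the other read 5.11 and 7.73. LATS2, a kinase of the Hippo pathway, read 6.51 in 2DG with phenformin and 3.33 in 2DG on one probe set, and 4.66 and 8.26 on another. ABL2, a tyrosine kinase, read 8.67 in 2DG with phenformin and 4.66 in 2DG on one, and 6.21 and 8.26 on another. YTHDC1, a nuclear reader of N6-methyladenosine, read 7.36 in 2DG with phenformin and 3.50 in 2DG on one, and 7.27 and 8.89 on another. These genes were chosen after their values were seen, and where their probes lie along the transcripts was not analysed here.

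Among splicing factors 4 of 50 were higher (8%) and 7 lower (14%) with phenformin in 2DG, and none higher and 5 lower in normal medium. Over all genes 4.84% were higher and 21.8% lower in 2DG. CLK1, a kinase of SR proteins, read 8.45 in 2DG with phenformin and 6.78 in 2DG, and SRSF5, an SR protein, read 8.04 and 10.11, though another of its probe sets differed by 2.56. SRSF7 stood at 11.58 in 2DG with phenformin and 11.65 in control, against 10.07 in 2DG. SAT1, which acetylates polyamines for export, read 11.13 in 2DG with phenformin and 8.37 in 2DG. Of 8 long non-coding RNAs 3 were lower (37.5%) and none higher. NORAD read 8.41 in 2DG with phenformin and 11.17 in 2DG, and OIP5-AS1 read 5.57 and 8.14. Autophagy and lysosome genes were close to the shares over all genes, with 8 of 39 lower (20.5%, beside 21.8%) and 1 higher (2.56%, beside 4.84%). The higher one was MITF, with 8.84 in 2DG with phenformin and 6.07 in 2DG.

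Targets of NRF2, which answers oxidative stress, held 6 lower of 22 (27.3%, beside 21.8% of all genes) and none higher (beside 4.84%). The heme oxygenase HMOX1 was among the lower ones, at 5.31 in 2DG with phenformin and 6.51 in 2DG, and 5.17 with phenformin and 5.23 in control. Of 6 genes in the list of TXNIP and arrestin relatives 3 were lower (50%) and none higher. TXNIP, which binds thioredoxin and limits glucose uptake, read 7.07 in 2DG with phenformin and 8.79 in 2DG, and 5.05 with phenformin and 5.32 in control. Of 20 HIF-1 targets 3 were higher (15%) and 4 lower (20%). Of 10 genes of iron uptake and storage 1 was higher (10%) and 4 lower (40%), and of 14 histone genes 3 were higher (21.4%) and 2 lower (14.3%). Of 15 cytosolic heat shock proteins 1 was lower (6.67%) and none higher.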
